A study of Mus musculus with 4 samples.

Results

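Group 3 innate lymphoid cells (ILC3s) are lymphocytes without antigen receptors that defend mucosal surfaces, mainly through IL-22. The 6 genes described here are Csf2, Il3, Il4, Il5, Il13 and Areg. They were taken by name from the 24343 genes that remained after transcript rows of the same gene had been summed, and all 6 had at least 1 row. Csf2, Il3, Il4, Il5 and Il13 encode secreted cytokines and lie in a single cytokine cluster on mouse chromosome 11, and Areg lies on chromosome 5.

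RNA-seq was done on ILC3s of mice with 1 GFP reporter copy and 1 wild-type copy of the IL-23 receptor locus (IL23R-GFP/WT). The sort kept GFP-positive cells that carried CD127 and no lineage markers. There were 2 libraries of TL1A-stimulated cells and 2 of cells kept in medium, all of the same genotype and sort. TL1A, a cytokine of the TNF family, acts on cells through its receptor DR3. The sources used here do not give its dose, the time of exposure, the age of the mice or the tissue. The question was how TL1A alters transcription in these cells. The labels leave unsaid whether the 2 libraries per group are from different mice or cultures, so every p-value here reflects the spread among these 4 libraries, which may be technical.

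GM-CSF, the product of Csf2, supports the maturation and activation of myeloid cells, and ILC3s are a known source of it in the gut. IL-4, IL-5 and IL-13 are the type 2 cytokines, best known from group 2 innate lymphoid cells (ILC2s) and T helper 2 cells, where the transcription factor GATA-3 drives them. IL-3 is a growth factor for blood cell precursors, mast cells and basophils. Amphiregulin, the product of Areg, is a ligand of the epidermal growth factor receptor (EGFR) that takes part in epithelial repair.

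The libraries held 11849977 and 12605164 assigned reads with TL1A and 11495636 and 12222552 in medium. Of 9852 genes with enough reads to be tested, 20.6% were called higher with TL1A, 21.7% lower, and 42.3% in either direction. A call means a Benjamini-Hochberg adjusted p below 0.05 in edgeR's quasi-likelihood test. The median log2 fold change of all tested genes was -0.03. With library totals in place of TMM scaling factors this median moved to -0.287 and the calls split into 1311 higher and 3472 lower, against 2027 and 2141 with TMM. Tnfrsf25, which encodes DR3, had 61.7 ± 10.7 CPM with TL1A and 62.3 ± 7.28 CPM in medium (SD, n = 2). Its transcript rows moved in opposite directions, so the sum describes neither of them. The first row had 435 and 598 reads with TL1A, against 416 and 379 in medium. The second had 148 and 206 reads with TL1A, against 432 and 385 in medium. CPM is the read count scaled to a common total of assigned reads after TMM correction.

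Csf2 was the one member of the 6 that was called, and it rose. Il4, Il5 and Il13 had enough reads to be tested and did not pass, and Il3 and Areg had too few. Of the 4 tested members 1 was thus called higher, and over all tested genes 20.6% were called higher and 42.3% in either direction. No change of the members as a group is read from this count.

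Csf2 had 88268 and 98388 reads in the TL1A libraries, against 890 and 910 reads in the medium libraries. The groups lay far apart and the libraries of each group were close to each other. Csf2 averaged 8339 ± 193 CPM with TL1A and 69.4 ± 1.92 CPM in medium (SD, n = 2), a 120.1-fold change (log2 fold change 6.91, SE 0.07, edgeR adjusted p = 1.12e-08). It took 0.745% and 0.781% of all assigned reads with TL1A, against 0.00774% and 0.00745% in medium (95% exact Clopper-Pearson intervals 0.74% to 0.75% and 0.776% to 0.785% with TL1A, 0.00724% to 0.00827% and 0.00697% to 0.00795% in medium). The cDNA carried no molecular identifiers, so these intervals cover counting error only. Only 46 tested genes, 0.467%, had a log2 fold change at least as large as that of Csf2, which itself is among them.

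Il5 behaved differently between the medium libraries. It had 119 and 81 reads in the TL1A libraries, against 6 reads in medium 1 and 109 reads in medium 2. Medium 2 therefore lay among the TL1A libraries, and the groups overlapped. The log2 fold change was 1.05 (SE 0.84, 95% interval -0.92 to 3.01, edgeR adjusted p = 0.355). Leaving out medium 2 gave 4.23 (edgeR adjusted p = 0.000636). Leaving out medium 1 gave 0.13 (edgeR adjusted p = 0.795), so 1 library decides whether Il5 is called. The medium 2 level was 17.1 times that of medium 1 in CPM. Among the 9771 tested genes with reads in both medium libraries, only 2, Il5 included, differed by at least this factor in either direction.

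IL-5 is made mainly by ILC2s and T helper 2 cells, so the markers of other cells in the 2 medium libraries are given beside it. The prostaglandin synthase gene Hpgds had 153 reads in medium 2 and 73 in medium 1, the chemokine receptor gene Ccr3 had 82 and 25, and Cd28 of T cells had 67 and 21. Some other markers of the same lists had fewer reads in medium 2 than in medium 1. The ILC2 gene Il17rb had 186 reads in medium 2 and 207 in medium 1, and the T cell signalling gene Lat had 1545 and 1732. Cd3e, a chain of the T cell receptor complex, had 16 reads in medium 2 and 0 in medium 1. Il1rl1, which encodes the IL-33 receptor of ILC2s, had 166 and 175 reads. The summed level of the 13 T cell markers was 514.8 CPM in medium 2 and 499.4 CPM in medium 1. For the 18 mast cell, basophil and eosinophil markers it was 31.8 CPM in medium 2 and 19.8 CPM in medium 1. Most of that came from Cpa3, with 314 reads in medium 2 and 212 in medium 1. The summed level of the 16 ILC2 marker genes was 863.7 CPM in medium 2 and 817.2 CPM in medium 1. With TL1A it was 2297 to 2332 CPM, and most of it came from Il2ra in both groups. Ptgdr2, Il9r and Crlf2 had 0 reads in every library. The part of such cells in the Il5 reads was not tested. In bulk samples, fewer cells of a type and less RNA per cell cannot be told apart.

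**Figure D1:**
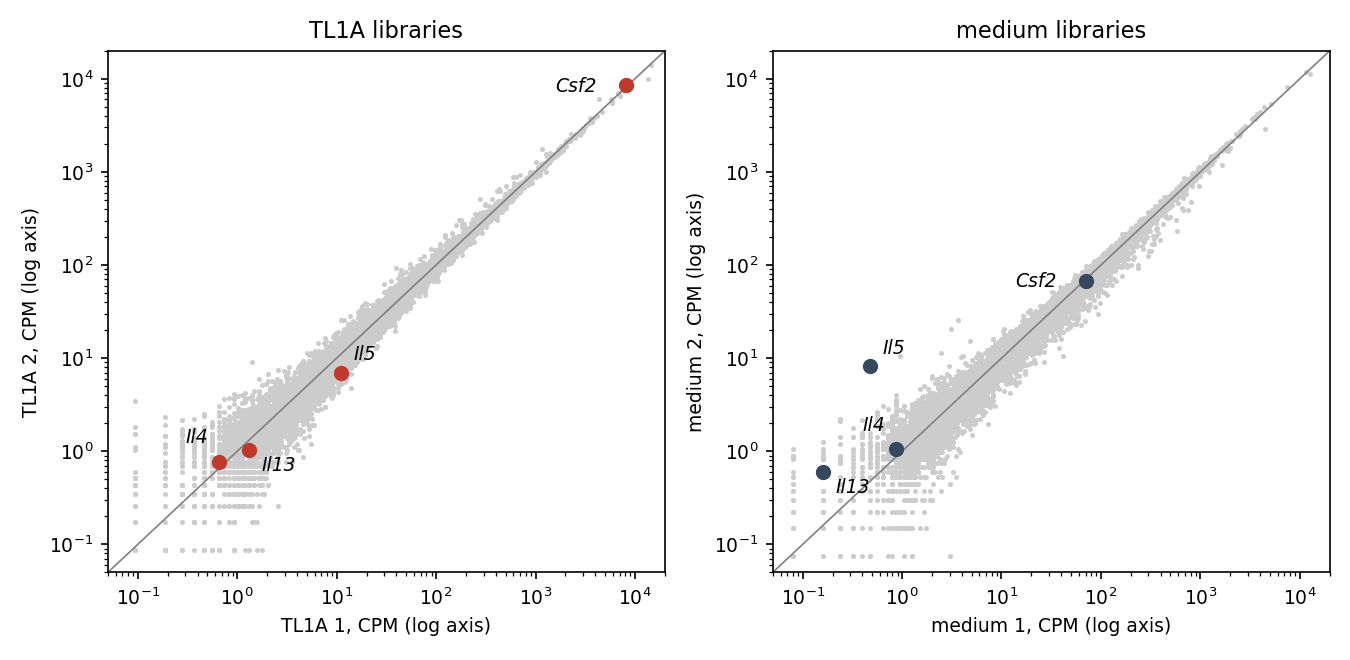
CPM of tested genes in one library against the other of the same group (log axes; grey points are genes with reads in both libraries, the line marks equal values, coloured points are the 4 tested members). Il5 lies close to the line between the TL1A libraries but far off it between the medium libraries, where medium 2 had 17.1 times the CPM of medium 1.

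Il13 had 14 and 12 reads in the TL1A libraries, against 2 and 8 reads in the medium libraries. Both TL1A libraries lay above both medium libraries in CPM, as they did for 34.7% of all tested genes. The log2 fold change was 1.58 (SE 0.70, 95% interval -0.06 to 3.22, edgeR adjusted p = 0.111) and ranged from 0.939 to 2.82 when single libraries were left out. A rise of Il13 was thus not established, and a rise of several fold is inside the interval. As a ratio of summed reads, scaled by assigned reads, it was 2.52, with a 95% counting interval of 1.18 to 5.86. That interval leaves out the spread between libraries, which the edgeR test includes.

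Il4 is represented by a coding and a non-coding transcript row, and reads in exons that they share were not assigned to either. The coding transcript NM_021283 had 0 and 3 reads with TL1A, against 0 and 2 reads in medium. The non-coding transcript NR_027491 had 7 and 6 reads with TL1A, against 11 and 12 reads in medium. Most counted Il4 reads thus came from the row that does not encode the cytokine. For the summed gene the log2 fold change was -0.43 (SE 0.54, 95% interval -1.69 to 0.84, edgeR adjusted p = 0.567). Both TL1A libraries lay below both medium libraries, as for 37.6% of all tested genes.

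Il3 and Areg were barely counted. Il3 had 1 and 6 reads in the TL1A libraries, against 0 reads in both medium libraries. The ratio of its 7 TL1A reads to 0 medium reads, scaled by assigned reads, has a 95% counting lower limit of 1.4 and no upper limit. In the fit without the low-count filter Il3 did not pass (edgeR adjusted p = 0.158, unadjusted p = 0.0607). In that fit 30.2% of 14711 genes were called in either direction. Areg had 2 and 1 reads with TL1A, against 0 and 4 reads in medium. Its ratio of TL1A to medium reads, scaled by assigned reads, was 0.727, with a 95% counting interval of 0.107 to 4.3, so neither a rise nor a fall of Areg was detectable at this depth.

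**Figure D2:**
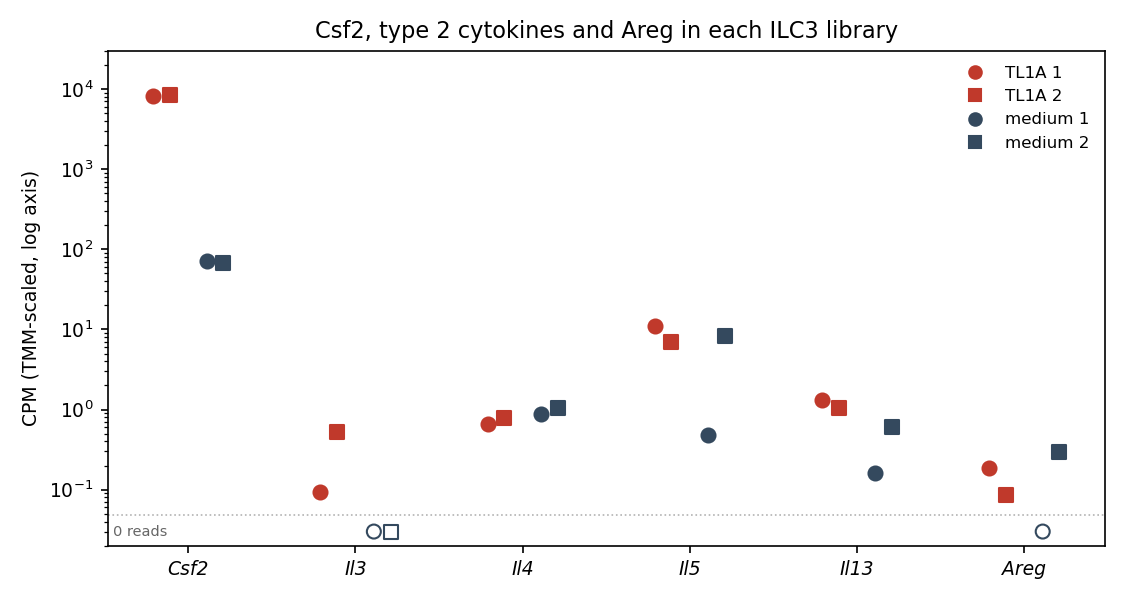
CPM (TMM-scaled, log axis) of the 6 genes in each of the 4 libraries, with TL1A libraries in red and medium libraries in dark blue; open symbols at the foot mark 0 reads. Csf2 stands at 8202 and 8475 CPM with TL1A and at 70.8 and 68.1 CPM in medium, and the highest value of any other member is 11.1 CPM, for Il5 in TL1A 1.

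Set side by side, the members differed in level and in change. Levels of different genes are compared in RPKM, which divides TMM-scaled CPM by the GENCODE transcript length. Csf2 reached 10253 and 10594 RPKM with TL1A, against 88.5 and 85.1 RPKM in medium. Il5 was next among the members in the TL1A libraries, with 7.19 and 4.54 RPKM with TL1A, against 0.311 and 5.31 RPKM in medium. Il13 had 1.08 and 0.858 RPKM with TL1A, against 0.132 and 0.497 RPKM in medium. The coding row of Il4 had 0 and 0.438 RPKM with TL1A, against 0 and 0.254 RPKM in medium. Il3 had 0.148 and 0.822 RPKM with TL1A, against 0 in both medium libraries. Areg had 0.153 and 0.0709 RPKM with TL1A, against 0 and 0.246 RPKM in medium. The levels of Il3 and Areg overlapped each other with TL1A. That of coding Il4 leaves out reads in exons shared with the non-coding row, so it is understated and not comparable with them. The log2 fold change of Csf2 exceeded that of Il13 by 5.33 (SE 0.70), that of Il5 by 5.86 (SE 0.84) and that of Il4 by 7.33 (SE 0.55). Between Il13 and Il5 the difference, 0.53 (SE 1.09), was within its error.

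The tested gene with the pattern most like that of Csf2 was Il22, at a Euclidean distance of 0.945 over the log2 CPM of the 4 libraries. Il22 had 73476 and 82527 reads with TL1A, against 709 and 519 reads in medium. The adhesion molecule gene Icam1 (distance 2.59) and Icosl, which encodes the ligand of ICOS (distance 2.6), came next. They rose by less, with log2 fold changes of 4.62 (SE 0.07) and 4.67 (SE 0.07). For Il4 and Il13, which rest on a few reads per library, many genes have near-identical counts and no likeness can be read.

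The 3 genes next to Csf2 on one side of it on chromosome 11 rose too, and the 3 next to it on the other side had too few reads to be tested. In the order of the RefSeq GRCm38.p6 gene table, P4ha2, Pdlim4 and Slc22a4 precede Csf2, and Il3, Acsl6 and Meikin follow it. P4ha2, which encodes a subunit of a collagen prolyl hydroxylase, had 443 and 493 reads with TL1A, against 4 and 9 reads in medium. Pdlim4, which encodes a protein with PDZ and LIM domains that binds the actin cytoskeleton, had 681 and 1037 reads with TL1A, against 6 and 9 reads in medium. Slc22a4, which encodes an organic cation transporter, had 105 and 84 reads with TL1A, against 2 and 2 reads in medium. In all 3 genes the groups lay far apart, although the medium values rest on few reads.

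The log2 fold changes were 6.36 for P4ha2 (SE 0.27, edgeR adjusted p = 3e-06), 7.02 for Pdlim4 (SE 0.30, adjusted p = 2.75e-06) and 5.69 for Slc22a4 (SE 0.46, adjusted p = 7e-05). As ratios of summed reads, each group scaled by its assigned reads, these were 69.8, 111 and 45.8, with 95% counting intervals of 40.6 to 132, 67.2 to 199 and 17.6 to 170. Both transcript rows of P4ha2 showed it, with 259 and 313 reads with TL1A against 2 and 5 in medium for NM_001136076, and 184 and 180 against 2 and 4 for NM_011031. Only 66 tested genes, 0.670%, were called with a log2 fold change at least as large as that of Slc22a4, and 4 of them are Slc22a4, Pdlim4, P4ha2 and Csf2. These 3 neighbours were singled out after their values were seen. On the other side, Il3 was barely counted, Acsl6 had 1 read in TL1A 2 and 0 in the other libraries, and Meikin had 0 reads in every library. Acsl6 has several transcript rows, and reads in exons that they share were not assigned, so its count does not show absence.

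The other tested genes of the stretch changed by less. The stretch runs over 26 protein-coding genes, of which 20 were tested, 6 were higher and 5 were lower, against 20.6% higher and 21.7% lower over all tested genes. The number lower was 3 without TL1A 1, without TL1A 2 or without medium 1. Beside the 4 genes above, Uqcrq, a respiratory chain subunit, rose by 0.94 on the log2 scale (SE 0.09) and Zcchc10 was called at 0.42 (SE 0.12). The call of Zcchc10 was lost in each of the 4 fits that left out a library (edgeR adjusted p of 0.0582 to 0.126), with library totals (0.314) and with the replicate block (0.0717). Irf1, which encodes an interferon regulatory factor and lies beside Il5, fell to 5 and 6 reads with TL1A, against 17 and 24 reads in medium (log2 fold change -1.66, SE 0.54, edgeR adjusted p = 0.042). Irf1 has several transcript rows, and its call was lost in each of the 4 fits that left out a library (edgeR adjusted p of 0.0782 to 0.189) and with DESeq2 (adjusted p = 0.244). The DNA repair gene Rad50, which lies between Il13 and Il5, was not called in the main fit (log2 fold change -0.38, SE 0.14, edgeR adjusted p = 0.0677). It was called lower with DESeq2 (adjusted p = 0.0263), without the low-count filter (edgeR adjusted p = 0.0123) and with library totals (edgeR adjusted p = 0.00992). Its call thus depends on the processing. Kif3a, beside Il4, had 0 reads in every library. It too has several transcript rows, and reads in exons that they share were not assigned, so this does not show absence.

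**Figure D3:**
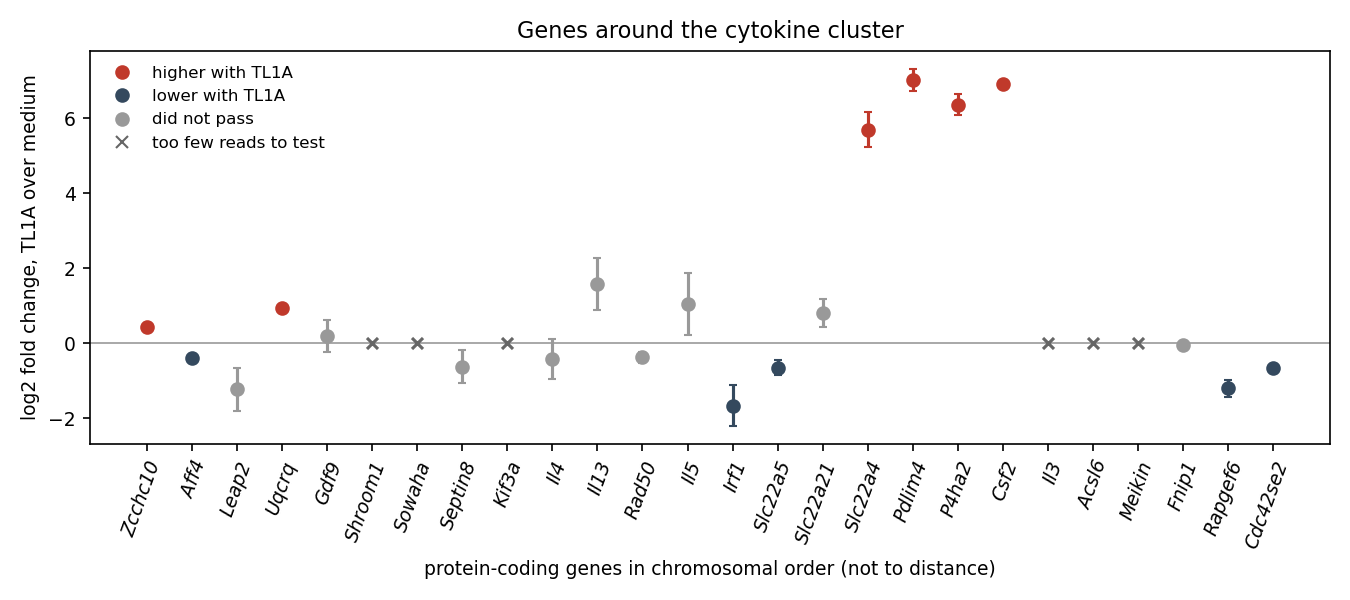
Log2 fold change of TL1A over medium (bars: SE) for the 26 protein-coding genes around the cytokine cluster, in chromosomal order and not to distance. Crosses at 0 mark genes with too few assigned reads to test, and they do not show absence. The 4 adjacent genes from Slc22a4 to Csf2 stand between 5.69 and 7.02, while every other tested gene of the stretch lies between -1.66 and 1.58.

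The windows upstream of these adjacent genes, and that of the barely counted Il3, are shown because the genes lie side by side around Csf2. Each is 300 bases from RefSeq (GRCm38.p6), 250 before and 50 after an annotated start, on the strand of the gene. Capitals mark matches, on either strand, to AP-1 TGANTCA, the NFAT core GGAAA, the GATA core AGATAA, an NF-kB motif (GGG and CC with any 5 bases between them), the TATA box TATAAA and the CATT core CATTTC.
Csf2, chr11:54249850-54250149, minus strand: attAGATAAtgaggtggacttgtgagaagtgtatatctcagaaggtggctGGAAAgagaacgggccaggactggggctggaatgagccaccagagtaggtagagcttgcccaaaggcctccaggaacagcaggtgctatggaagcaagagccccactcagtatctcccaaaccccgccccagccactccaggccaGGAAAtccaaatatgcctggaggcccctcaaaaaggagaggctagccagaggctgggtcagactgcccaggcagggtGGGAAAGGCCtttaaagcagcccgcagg
P4ha2, chr11:54100674-54100973, plus strand: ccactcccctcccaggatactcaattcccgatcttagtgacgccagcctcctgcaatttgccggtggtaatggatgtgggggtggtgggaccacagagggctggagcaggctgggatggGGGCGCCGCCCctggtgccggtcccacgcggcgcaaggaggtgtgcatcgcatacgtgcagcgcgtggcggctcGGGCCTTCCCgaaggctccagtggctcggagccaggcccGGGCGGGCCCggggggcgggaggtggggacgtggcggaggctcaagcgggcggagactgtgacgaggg
Pdlim4, chr11:54068968-54069267, minus strand: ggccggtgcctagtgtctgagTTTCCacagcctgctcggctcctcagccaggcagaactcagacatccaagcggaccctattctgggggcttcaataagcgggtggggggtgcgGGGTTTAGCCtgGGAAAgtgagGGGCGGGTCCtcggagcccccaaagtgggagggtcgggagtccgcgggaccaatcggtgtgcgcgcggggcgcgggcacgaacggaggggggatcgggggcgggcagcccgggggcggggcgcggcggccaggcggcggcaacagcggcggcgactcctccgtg
Slc22a4, chr11:54028055-54028354, minus strand: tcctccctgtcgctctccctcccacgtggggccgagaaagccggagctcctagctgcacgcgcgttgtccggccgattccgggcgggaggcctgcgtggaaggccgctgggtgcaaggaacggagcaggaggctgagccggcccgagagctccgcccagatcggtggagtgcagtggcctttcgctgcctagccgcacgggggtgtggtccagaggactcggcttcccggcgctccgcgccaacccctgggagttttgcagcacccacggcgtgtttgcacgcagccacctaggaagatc
Il3, chr11:54267230-54267529, minus strand: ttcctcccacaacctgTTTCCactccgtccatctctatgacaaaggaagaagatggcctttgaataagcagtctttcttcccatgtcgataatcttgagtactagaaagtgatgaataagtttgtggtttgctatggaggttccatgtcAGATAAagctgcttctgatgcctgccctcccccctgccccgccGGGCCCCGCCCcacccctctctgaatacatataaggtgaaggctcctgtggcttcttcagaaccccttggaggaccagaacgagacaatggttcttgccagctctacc

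The RefSeq start behind the Csf2 window lies 232 bases upstream of the start that GENCODE M21 gives for Csf2, so the bases just before that second start are not in it. The Csf2 window held 3 NFAT cores, 1 GATA core and 1 NF-kB match, and an NFAT core at position 274 lies inside the NF-kB match at position 273, counted from the first base. P4ha2 held 6 NF-kB matches, of which several overlap as the 2 strands of the same bases, Pdlim4 held 2 NF-kB matches and 2 NFAT cores, and Slc22a4 held none of the 6 motifs. Il3 held 1 NFAT core, 1 GATA core and 2 overlapping NF-kB matches. No motif was thus shared by all 4 windows of the genes that rose. Of all 32851 windows in the table, 61.3% held the NFAT core, 50.8% the NF-kB motif, 11.2% the GATA core, 17.5% the CATT core, 13.6% the TATA box and 7.8% the AP-1 motif.

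The windows of the type 2 cytokines and Areg were searched in the same way. The Il13 window held 4 NFAT cores, 1 GATA core and a TATA box matched on both strands, and that of Il5 held 2 NFAT cores and 1 CATT core that overlaps 1 of them. The Il4 windows, at 2 annotated starts, held 1 and 5 NFAT cores, and the first also held 1 CATT core. Areg held 1 NFAT core, 1 NF-kB match and 1 TATA box.

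The receptors for these cytokines share chains. The list of 10 receptor genes also holds Il9r, which serves none of the members. Of the 10 genes, 5 were tested, 2 were higher, none was lower and 3 did not pass. Over all tested genes 20.6% were called higher and 21.7% lower. The median log2 fold change of the 5 tested receptor genes was 0.287, against -0.03 over all tested genes. Il4ra, the chain that binds IL-4 and also serves IL-13, had 3567 and 3591 reads with TL1A, against 2294 and 2281 reads in medium. It averaged 320.4 ± 15.7 CPM with TL1A and 176.6 ± 8.36 CPM in medium (SD, n = 2; log2 fold change 0.86, SE 0.08, edgeR adjusted p = 0.000127). Il2rg, the common gamma chain that pairs with it, rose to 8723 ± 329 CPM with TL1A, against 3714 ± 183 CPM in medium.

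The chains that bind GM-CSF itself were not called. Csf2rb, the beta chain shared by GM-CSF, IL-3 and IL-5, had 318 and 242 reads with TL1A, against 361 and 310 reads in medium (log2 fold change -0.04, SE 0.21). Csf2ra, the chain specific for GM-CSF, had 15 and 23 reads with TL1A, against 23 and 13 reads in medium (0.28, SE 0.50). Il3ra stood at 0.29 (SE 0.35), and the sign of all 3 turned when some single library was left out. Il5ra, the specific chain for IL-5, had too few reads to be tested, with 16 and 9 with TL1A, against 0 and 1 in medium. That is a ratio of 24.2 with a 95% counting interval of 3.97 to 996. In the fit without the low-count filter Il5ra was called higher (edgeR adjusted p = 0.00767), which makes 3 receptor genes higher there. Il13ra2 and Il9r had 0 reads in every library.

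Genes that regulate type 2 cytokine or GM-CSF expression moved in both directions. Of 32 genes in the list, 24 were tested, 11 were higher, 6 were lower and 7 did not pass, against 20.6% higher and 21.7% lower over all tested genes. Their median log2 fold change was 0.426. Bhlhe40, which encodes a transcription factor needed for GM-CSF production by T helper cells in mice, had 88095 and 93271 reads with TL1A, against 21601 and 23453 reads in medium (log2 fold change 2.22, SE 0.05, edgeR adjusted p = 2.59e-07). In CPM, both TL1A libraries of Bhlhe40 lay above both medium libraries, as for 34.7% of all tested genes. The AP-1 family genes Fosl2 and Batf rose by 2.70 (SE 0.12) and 1.67 (SE 0.08). Irf4, which encodes a partner of BATF, is named because of its values. It had 841 and 1057 reads with TL1A, against 51 and 26 reads in medium.

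Gata3, the master regulator of type 2 cytokines, was not among the genes that rose. It had 1512 and 1490 reads with TL1A, against 1923 and 2111 reads in medium (log2 fold change -0.21, SE 0.09, edgeR adjusted p = 0.0931), and it was called lower with library totals in place of TMM (-0.47, edgeR adjusted p = 0.00346). Tcf7, which encodes TCF-1, fell to 720 ± 15.5 CPM with TL1A, against 2092 ± 103 CPM in medium. Several regulators of the list, Nfatc1, Nfatc2, Runx1, Gfi1 and Jund, had 0 reads in every library. A gene can be at 0 because reads in exons shared by its rows were not assigned, so these zeros do not show absence.

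**Figure D4:**
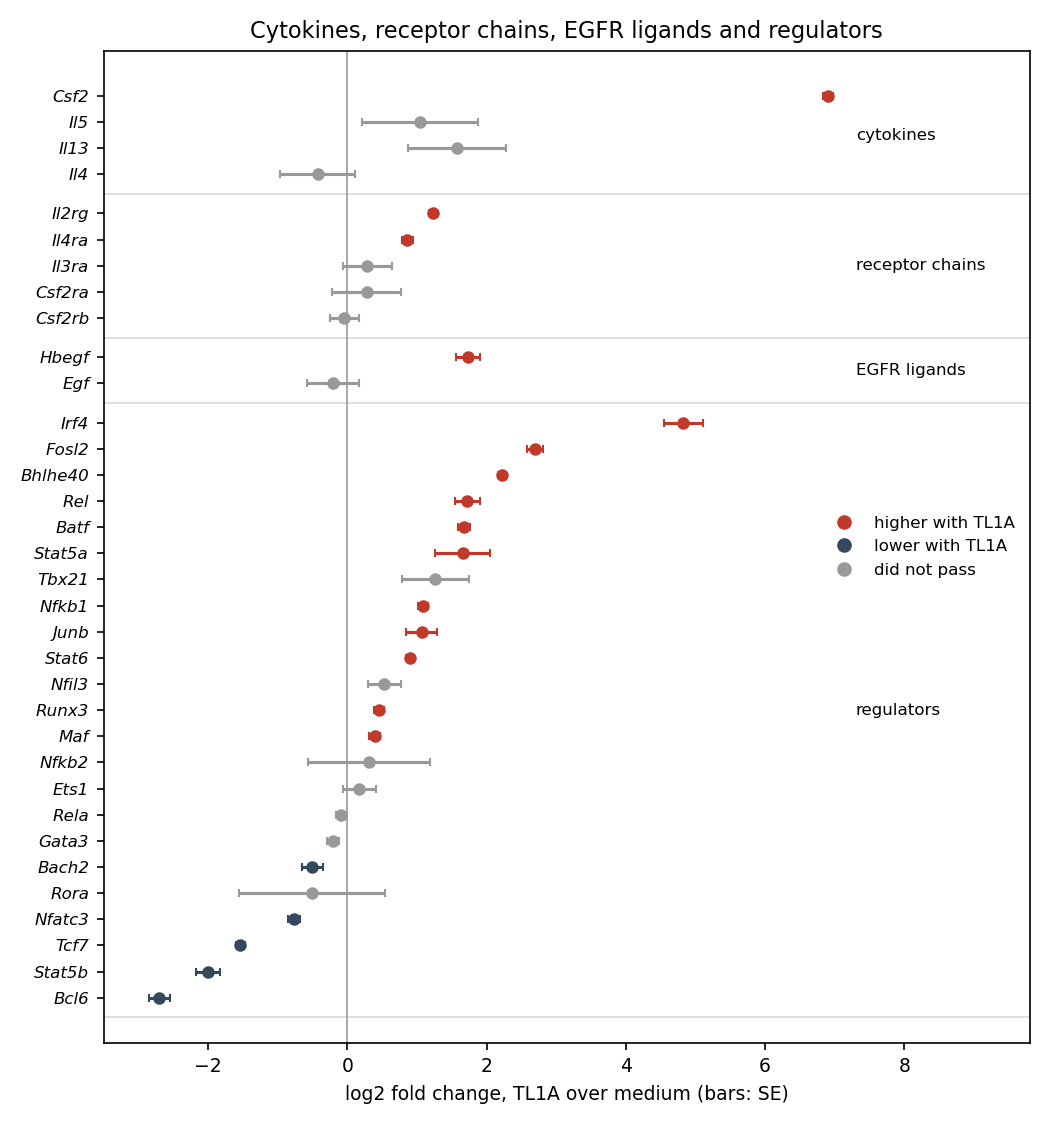
Log2 fold change of TL1A over medium (points; bars: SE) for the tested members, receptor chains and EGFR ligands and for all tested regulators but 1, in red where higher, dark blue where lower and grey where not called. Csf2 at 6.91 lies to the right of all others, and Irf4 at 4.82 is the largest among the regulators.

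Areg belongs to the EGFR ligands, of which 2 of the 6 others were tested. Hbegf, which encodes heparin-binding EGF-like growth factor, had 309 and 346 reads with TL1A, against 121 and 107 reads in medium (log2 fold change 1.73, SE 0.17, edgeR adjusted p = 0.000198). Egf had 77 and 41 reads with TL1A, against 64 and 96 reads in medium and did not pass (-0.21, SE 0.38). Ereg, Btc and Tgfa had 0 reads in every library and Epgn had 2 reads in TL1A 1 only. Of the neighbours of Areg on chromosome 5, Ereg and Btc are thus at 0, and the farther Mthfd2l was not called (log2 fold change 1.32, SE 0.50, edgeR adjusted p = 0.0692). Among the receptors and the genes linked to shedding or its inhibition, 4 of 9 genes were tested. Timp3 rose by 1.93 (SE 0.13), Erbb2 fell by 0.96 (SE 0.18), and Adam10 and Erbb3 did not pass. Over all tested genes 20.6% were called higher and 21.7% lower. Egfr had 0 reads in every library.

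Among 23 other interleukin and colony-stimulating factor genes, 8 were tested, 3 were higher and 1 was lower, against 20.6% and 21.7% over all tested genes. Beside Il22, the higher genes were Il6, with 482 and 529 reads with TL1A, against 157 and 214 in medium, and Il2, with 40 and 71 reads with TL1A, against 1 and 2 in medium. Il16, a chemoattractant gene, fell by 0.82 (SE 0.07). Csf1 had 1 read in each TL1A library and 0 in both medium libraries, and Csf3 had 0 reads in every library, so of the colony-stimulating factors Csf2 was the one that could be tested.

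Marker lists of the sorted cells and of others that could be present are given as background to these values. Of 17 ILC3 markers, 16 were tested, 5 were higher and 8 were lower. The shares over all tested genes, for this and the other marker lists, were 20.6% higher and 21.7% lower. The ILC3 genes Il7r, Thy1 and Ncr1 were all detected but did not stay level, and more of the list was lower than higher. Il7r fell to a mean of 1199 CPM with TL1A, against 3603 CPM in medium. Thy1 rose to 709 CPM, against 146 CPM in medium, and Ncr1 to 431 CPM, against 15.5 CPM. The other higher ones were Il22, Ltb and Id2. Il23r, whose locus carries the GFP reporter, fell to 647 CPM with TL1A, against 1000 CPM in medium. Ahr, Il1r1, Tox, Zbtb16 and Il18r1 were also among the lower ones. Kit had 0 reads in 3 libraries and 1 in medium 2. Of 18 mast cell, basophil and eosinophil markers, 14 had 0 reads in every library, Mcpt8, Fcer1a, Ms4a2 and Gata2 among them. Their summed level was 4.65 to 5.6 CPM with TL1A and 19.8 to 31.8 CPM in medium, mostly from Cpa3, which had 2 and 0 reads with TL1A, against 212 and 314 reads in medium. Of 13 T cell markers, 6 were tested, none was higher and 2, Cd4 and Cd28, were lower. Without medium 2, Cd3e was called higher (edgeR adjusted p = 0.00911) and the call of Cd28 was lost (0.0737). Their summed level was 206.4 to 212.9 CPM with TL1A and 499.4 to 514.8 CPM in medium, mostly from Cd4 and Lat. Without Cd4 it was 107 to 122.3 CPM with TL1A and 127 to 143.4 CPM in medium. The T cell receptor complex genes were low, with means of 1.62 CPM with TL1A and 0.599 CPM in medium for Cd3e, 0.759 and 0.154 CPM for Cd3d, and 2.93 and 2.4 CPM for Cd3g. Of 16 ILC2 markers, 11 were tested, 3 were higher and 4 were lower. The higher ones were Il2ra, Klrg1 and Nmur1, and the lower ones Il1rl1, Il17rb, Arg1 and Icos. Klrg1 rose to 1486 and 1522 reads with TL1A, against 344 and 372 in medium. Il1rl1 fell to 44 and 12 reads with TL1A, against 175 and 166 in medium. The higher sum of the ILC2 list with TL1A came from Il2ra: without it the sums were 371.3 to 406.9 CPM with TL1A and 397 to 415.7 CPM in medium. For the mast cell, basophil and eosinophil list without Cpa3 they were 4.46 to 5.6 CPM with TL1A and 2.94 to 8.31 CPM in medium. The part of such cells in the Csf2 difference was not tested.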

How the data were processed

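RNA-seq of 4 mouse ILC3 libraries was analysed, 2 with TL1A and 2 in medium. The deposited tables hold raw counts, 1 row for each RefSeq transcript. The submitters' processing notes name CASAVA, STAR, HTSeq and the build mm9, with no role or order. cDNA was made with a SMARTer Ultra Low Input kit, per the labels' protocols. Tool versions, strandedness and the gene models are not named there. The 5 HTSeq summary rows, 69.9% to 71.3% of a column's sum, name no gene and were left out. Reads ambiguous between rows were 33.7% to 34% of assigned plus ambiguous reads, and genes with several rows lose reads that way.

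Of 33535 rows, 33154 were matched to symbols through RefSeq GRCm38.p6, used for names and gene order, and rows of a gene were summed. Genes were tested with edgeR 4.0.16 in R 4.3.3 (filterByExpr with a minimum count of 10, TMM, glmQLFit and glmQLFTest with group as the only term, two-sided, adjusted p under 0.05 over all tested genes). Standard errors were taken as the absolute log2 fold change over the square root of F. The script was tested on simulated data. With 2 libraries a group, the smallest p of an exact permutation test is 0.333, so calls rest on spread pooled over genes. Alternatives were RLE factors, library totals, DESeq2 1.42.0, no filter, the replicate number as a block and leaving out each library. The members and lists were chosen with earlier results of these data known. Named were the members, receptor chains, EGFR ligands, direct neighbours, the DR3 gene, up to 4 genes of each list with the smallest p and the 3 genes nearest to a member in log2 CPM (prior count 2); others, such as Gata3 and Irf4, were chosen after their values were seen. The values of 1 gene of the lists are not reported here.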

Additional observations from a re-analysis of the deposited data

How the results depend on the processing

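Csf2 stayed called and higher under every alternative run, with a log2 fold change of 6.65 to 6.93, and Il4 and Il13 stayed uncalled. Without single libraries the ranges were 6.88 to 6.93 for Csf2, -0.558 to -0.263 for Il4, 0.939 to 2.82 for Il13 and 0.131 to 4.23 for Il5. The members called numbered 1 to 2 in these fits, and the second was Il5 without medium replicate 2. The unfiltered adjusted p of Il3 ranged from 0.112 to 0.574 and that of Areg from 0.491 to 0.949 without single libraries. The neighbours P4ha2, Pdlim4 and Slc22a4 stayed called in all alternatives, at 5.93 to 7.02, 6.75 to 7.32 and 5.46 to 5.89 without single libraries. With library totals in place of TMM, the calls were 1311 higher and 3472 lower, and the median log2 fold change was -0.287.

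The labels give both groups the numbers 1 and 2 without saying what they stand for. Deviations of same-numbered libraries correlated at -0.105 across genes. The replicate block gave 1736 higher and 1806 lower calls and changed no call of a member. With the crossed pairing of the numbers, added after seeing the data, 2295 were higher and 2439 lower, and 2 members were called, the second being Il5 at 1.52.

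Among named genes that were not called, some changed sign. When single libraries were left out, the log2 fold change ranged from -0.202 to 0.153 for Tnfrsf25, -0.0849 to 0.784 for Csf2ra, -0.316 to 0.188 for Csf2rb, -0.111 to 0.592 for Il3ra, -0.797 to 0.219 for Egf, -0.128 to 0.338 for Erbb3, -0.0298 to 0.609 for Rassf6, -0.129 to 1.03 for Hdc and -0.985 to 0.67 for Ccr3. Tnfrsf25 also turned to 0.0126 with RLE factors and 0.0125 with DESeq2, and library totals gave -0.179 for Erbb3 and -0.0104 for Rassf6. The cause was not tested. Depth limits Il3 and Areg, where 3 reads in a library correspond to 0.238 to 0.261 CPM. Coding Il4 is limited also by the reads in shared exons that were not assigned.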
